A study of Mus musculus with 36 samples.

Results

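The Ikaros family of genes, Ikzf1 to Ikzf5, was examined for DNA methylation in the mouse B3 cell line, a model of the early pre-B stage. Members were the CpG clusters, runs of listed cytosines at most 100 bp apart, that overlapped 1 of the 5 genes or the 5 kb on either side of it in GENCODE M21 on GRCm38. There were 7 such clusters among the 18009 clusters of the series. All 7 had positions with a value in every sample, as did 16734 clusters in all. Methylation was measured by reduced representation bisulfite sequencing (RRBS), in which DNA is cut with MspI at CCGG, converted with bisulfite and sequenced, so that CpG-rich stretches are favoured. Of the 36 samples, 18 belonged to the Ikaros series and 18 to Control, taken at 0, 2, 6, 12, 18 and 24 h with 3 replicates each. Cells of the Ikaros series carried an MSCV retroviral vector for an HA-tagged Ikaros joined to the ERt2 hormone-binding domain, followed by an IRES and GFP. Cells of the Control series carried the same kind of vector with ERt2 but without Ikaros, and both were sorted for GFP. Both series were given 0.5 µM 4-hydroxytamoxifen (4-OHT), which sends the fusion protein to the nucleus. The 0 h cultures were grown separately and, by the study's methods, had no 4-OHT, although the labels name 4-OHT at every time point. All samples come from a single line, and how many separate transductions each series represents is not given in the sources used here, so Ikaros and any other difference between the transduced populations cannot be told apart.

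The Ikaros family proteins are zinc finger transcription factors that bind DNA through N-terminal fingers and pair with each other through C-terminal fingers. Ikaros (Ikzf1) is needed for lymphocyte development and drives pre-B cells from proliferation to differentiation. Aiolos (Ikzf3) is its close relative in the B lineage and acts on many of the same genes. Helios (Ikzf2) and Eos (Ikzf4) are best known from T cells, and Pegasus (Ikzf5) is expressed broadly. CpG-dense promoters of active genes usually carry little methylation, and dense methylation of such a promoter usually goes with a silent promoter. Expression was not examined here. In its methods the study names Ikzf1 among the known DNaseI-hypersensitive promoters of these cells, so the levels below do not show that the gene is silent.

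A promoter cluster was one that reached within 1000 bp of an annotated transcription start of its gene. There were 6 promoter clusters, 3 at Ikzf1 and 1 each at Ikzf2, Ikzf3 and Ikzf5, while no cluster lay in a gene body outside these windows. The remaining cluster was in the 3′ flank of Ikzf4, over the promoter of Rps26, a ribosomal protein gene. Ikzf4 therefore had no promoter value here. The authors kept only sites that fell in CpG clusters, so the rest of each gene has no values here, whether or not reads covered it. Of the CG dinucleotides within each gene and its flanks, 73 of 967 were listed for Ikzf1, 71 of 1505 for Ikzf2, 44 of 1219 for Ikzf3, 26 of 401 for Ikzf4 and 23 of 306 for Ikzf5. The 73 of Ikzf1 all lay in its promoter windows, which hold 204 CGs.

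The Ikzf1 clusters lay at chr11:11685400-11685649, chr11:11685839-11686045 and chr11:11686154-11686297 on GRCm38 and are called promoters 1, 2 and 3 here. Promoter 1 was intronic in the transcripts that start farther upstream and also overlapped the noncoding gene Gm11999, while promoter 2 had 121 of its 207 bases and promoter 3 all 144 of its bases in a 5′ UTR exon. The Ikzf2 cluster at chr1:69687321-69687683 began 76 bp upstream of the nearest GENCODE start. A further start at 69687351, outside the GENCODE gene and 106 bp upstream of that one, lay inside the cluster. The Ikzf3 cluster at chr11:98545724-98546059 spanned 2 starts, an outer one at 98546031 and an inner one, 231 bp downstream, at 98545800, which belongs to the protein-coding GENCODE transcript. The Ikzf4 flank cluster was at chr10:128626165-128626495, and the Ikzf5 cluster at chr7:131410044-131410277 was intronic, also within 1000 bp of a start of Acadsb and inside the annotation of Fgfr2.

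Stretches of 4 promoters that lie outside annotated UTRs are shown because they carry the measured sites and the contrast in CpG density at Ikzf3. They were read from GRCm38 on the strand of the gene, 5′ to 3′, with every CG in capitals. The Ikzf1 stretch is promoter 1, chr11:11685400-11685649 on the plus strand, with 33 of its 39 CGs listed. The Ikzf2 stretch is chr1:69687352-69687651 on the minus strand, with 58 of 62 CGs listed. The Ikzf3 stretch is chr11:98546032-98546331 on the minus strand, directly upstream of the outer start, where 4 of 16 CGs were listed, all at its 3′ end. The Ikzf5 stretch is chr7:131410044-131410277 on the minus strand, with 23 of 25 CGs listed.
Ikzf1: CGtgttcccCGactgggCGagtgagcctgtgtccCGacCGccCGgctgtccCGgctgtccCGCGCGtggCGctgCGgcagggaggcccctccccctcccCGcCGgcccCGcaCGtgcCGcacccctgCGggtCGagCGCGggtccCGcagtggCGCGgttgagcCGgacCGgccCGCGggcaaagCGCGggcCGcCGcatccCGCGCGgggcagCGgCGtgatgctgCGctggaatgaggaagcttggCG
Ikzf2: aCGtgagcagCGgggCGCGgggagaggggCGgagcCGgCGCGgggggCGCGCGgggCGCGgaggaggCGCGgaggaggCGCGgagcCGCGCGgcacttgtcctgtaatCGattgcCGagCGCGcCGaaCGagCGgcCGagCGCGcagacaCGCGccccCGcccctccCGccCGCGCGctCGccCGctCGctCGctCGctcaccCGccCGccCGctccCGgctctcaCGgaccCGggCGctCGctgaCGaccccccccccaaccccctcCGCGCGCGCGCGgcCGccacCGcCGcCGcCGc
Ikzf3: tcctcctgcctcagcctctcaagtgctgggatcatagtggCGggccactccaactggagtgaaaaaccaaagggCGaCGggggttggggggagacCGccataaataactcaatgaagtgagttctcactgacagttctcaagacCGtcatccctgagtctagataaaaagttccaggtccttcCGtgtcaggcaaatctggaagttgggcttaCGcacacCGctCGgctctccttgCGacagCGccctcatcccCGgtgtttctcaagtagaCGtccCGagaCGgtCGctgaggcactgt
Ikzf5: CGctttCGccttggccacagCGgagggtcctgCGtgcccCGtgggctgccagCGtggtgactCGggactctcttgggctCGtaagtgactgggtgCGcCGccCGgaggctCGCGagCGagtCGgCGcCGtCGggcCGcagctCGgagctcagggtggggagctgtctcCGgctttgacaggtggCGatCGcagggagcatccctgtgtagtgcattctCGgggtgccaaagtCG
The Ikzf2 stretch was the richest in CG, at 1.22 times the number that its C and G content predicts, against 1.02 for Ikzf1, 0.92 for Ikzf5 and 0.69 upstream of Ikzf3. Over the member clusters themselves this ratio ran from 0.90 to 1.23, and the Ikzf3 cluster, at 1.12, was among the denser ones. The letters TGGGAA, a core that Ikaros family proteins bind, were searched on both strands in the 300 bp around the middle of each cluster. They were found in the window of Ikzf1 promoter 3 and in none of the other 6, against 16.1% of the 18009 windows of the series.

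Both deposited tables give smoothed levels without read numbers, so read depth is unknown and the precision rests on the spread between samples. The share of levels at exactly 0 or 1 was 27.9% ± 4.89 in Control and 36.2% ± 7.63 in Ikaros (mean ± SD, n = 18 each). One library went against its label. Over all 16734 clusters, 35 of the 36 samples correlated better with the samples of their own series than with the other series, and the library labelled Control 24 h replicate 2 did not (mean r = -0.0619 with Control and 0.00408 with Ikaros, in deviations from the mean of all samples). The cluster differences at Ikzf3 and the call at Ikzf2 that it enters are given with and without it. The labels do not say that replicates were separate cultures, but the study's methods describe repeated time courses, and p-values measure the spread between these samples.

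The members fell into 3 kinds of promoter state. Over positions with a value in every sample, the Ikzf1 and Ikzf2 clusters were almost fully methylated. Means over the 36 samples were 97.8%, 98.2% and 97.9% at the Ikzf1 promoters 1, 2 and 3 and 98.3% at Ikzf2. The Ikzf2 mean left out 58 of 108 positions, those nearest the gene, where levels fell. Over 98 positions in 35 samples, the Ikzf2 means were 93.1% in Control and 96.3% in Ikaros. The Ikzf3 promoter was partly methylated, at 30.1%. The Ikzf5 promoter and the Ikzf4 flank were nearly free of methylation, at 1.09% and 0.40%. In the order of levels, the 4 highest clusters had means closer to each other than the SD of any of them over the samples (0.78 to 2.39 percentage points), and the 2 lowest had overlapping ranges.

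**Figure D1:**
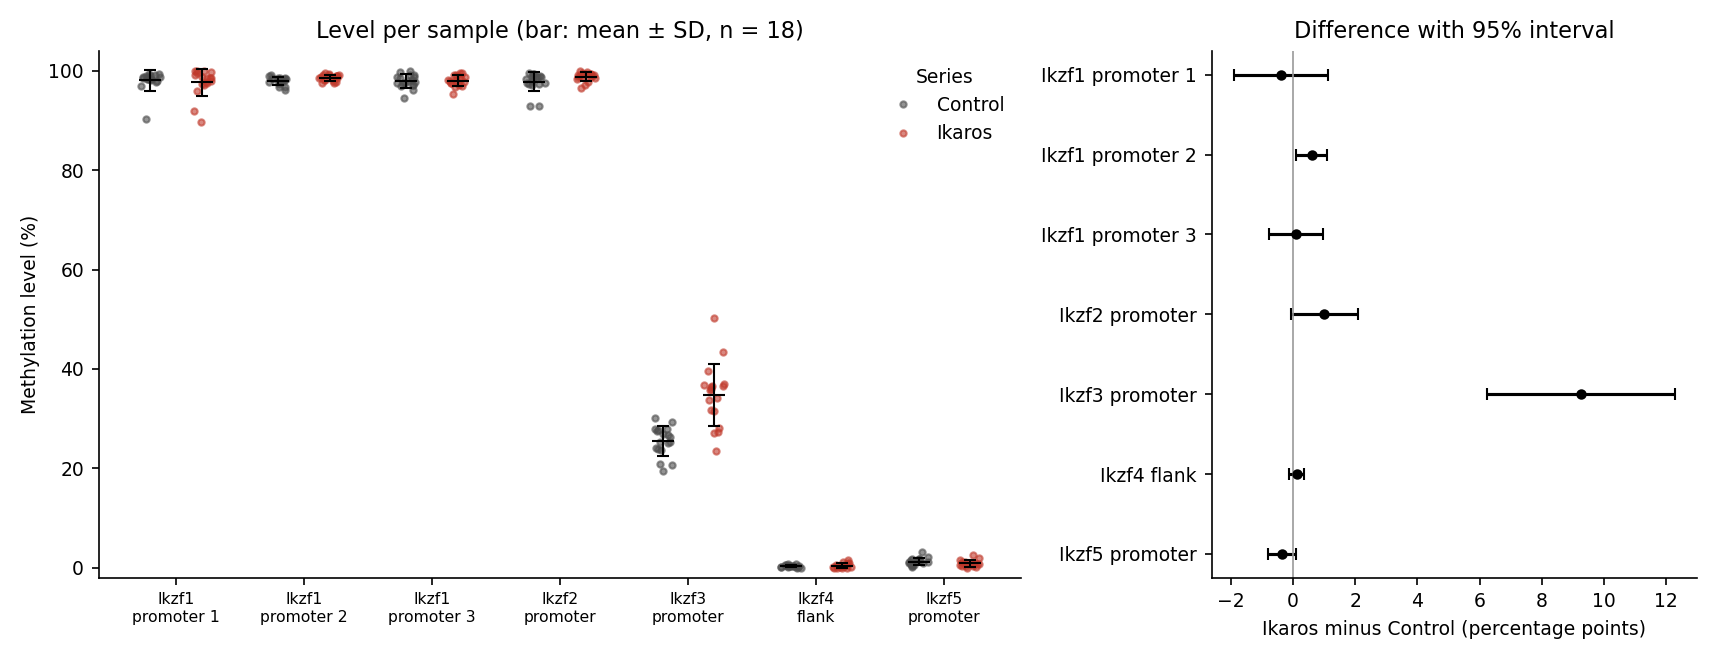
Methylation level of the 7 clusters in each of the 36 samples (left, y axis in percent, black bars mean ± SD of 18 samples per series) and the difference Ikaros minus Control with its 95% interval (right, x axis in percentage points). Levels are over positions with values in all samples, which leave out 58 of 108 at Ikzf2. Among these levels that of the Ikzf3 promoter is the only intermediate one, and its interval of 6.24 to 12.3 points is far from 0.

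Intermediate levels such as that of Ikzf3 were uncommon. Of 13133 clusters at promoters of protein-coding genes, 58.4% had a mean level under 10%, 32.4% a level over 90% and 9.18% a level between. Among the 8891 of these with a CG ratio of at least 0.8, 6.51% were between. For Ikzf2, counting the 50 of 108 positions with a value in all samples, 0.97% of the promoter clusters were more methylated. Only 1.36% had a higher CG ratio than the whole Ikzf2 cluster. For Ikzf1 promoter 2, 1.07% were more methylated and 11.8% had a higher ratio.

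**Figure D2:**
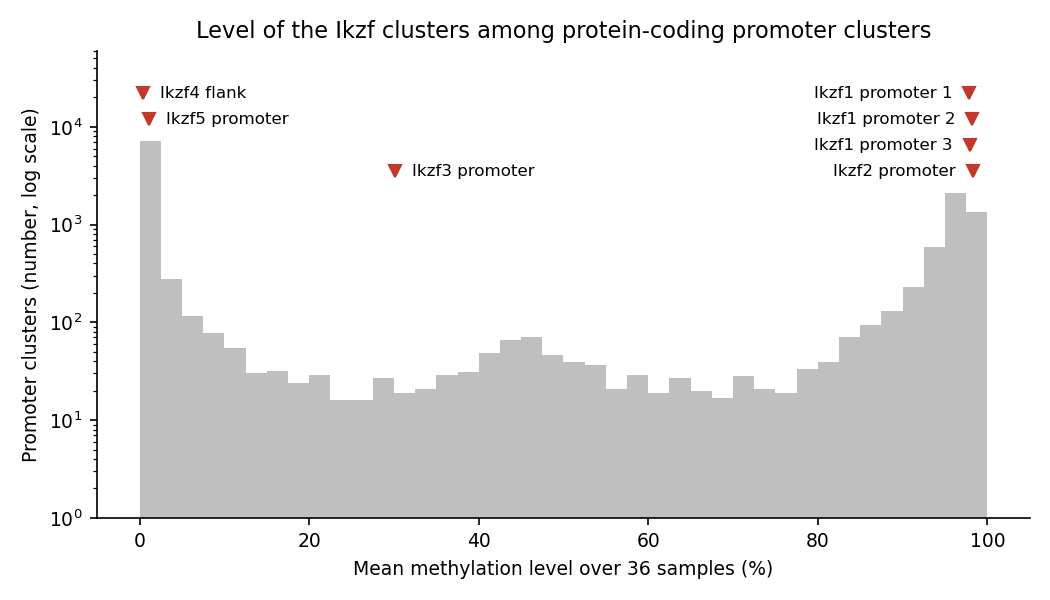
Number of protein-coding promoter clusters (y axis, log scale) by mean methylation level over 36 samples (x axis, percent), with the 7 Ikzf clusters marked by triangles whose height has no meaning. Levels are over positions with values in all samples, 50 of 108 at Ikzf2. Ikzf1 and Ikzf2 sit in the right-hand peak, Ikzf5 and the Ikzf4 flank in the left-hand one, and Ikzf3, at 30.1%, in the sparse middle.

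The question of the series comparison is whether cells with inducible Ikaros differ in methylation from cells with the control vector. Methylation of the Ikzf3 promoter was higher in the Ikaros series. The Control samples lay between 19.4% and 30.1% with a median of 25.8%, and the Ikaros samples between 23.5% and 50.2% with a median of 35.9%. Of the 18 Ikaros samples, 14 exceeded every Control sample and 17 exceeded the Control median. The ranges overlapped from 23.5% to 30.1%, and 3 Control samples were below every Ikaros sample. The means were 25.5% ± 2.96 in Control and 34.8% ± 6.26 in Ikaros (SD, n = 18 each), a difference of 9.26 percentage points with a 95% interval of 6.24 to 12.3. On the M-value scale, log2 of methylated over unmethylated, the difference was 0.76 ± 0.11 (SE), with adjusted p = 7.89e-06 in limma.

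Ikzf3 was the single member of 7 that passed this test, in which 810 of 16734 clusters (4.84%) were called and 621 (3.71%) were called and higher in Ikaros. Its difference in level was the 142nd largest of all clusters. Partly methylated promoters were called more often as a class. Of 1205 protein-coding promoter clusters with a mean of 10% to 90%, 264 (21.9%) were called, 242 of them higher in Ikaros, and 111 had a larger difference in level than Ikzf3. Without the library labelled Control 24 h replicate 2, the Ikzf3 difference was 0.74 ± 0.11 on the M-value scale (adjusted p = 1.50e-05, limma). With the shares of empty values and of levels at 0 or 1 as covariates it was 0.81 ± 0.15 (adjusted p = 0.00147, limma).

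The Ikzf3 difference was also present within the batches named in the labels. Within a batch, the samples of a series are its time points, so n counts time points. By the study's methods, flasks for the induced times were split from cells thawed and expanded together. The within-batch p-values therefore measure the spread between time points, not between independent cultures, and the permutations did not match samples by time. In batch 1 the means were 23.8% in Control and 32.3% in Ikaros (n = 6 each, exact two-sided permutation p = 0.0195). In batch 3 they were 25.4% and 40.3% (n = 5 each, p = 0.00794 by the exact permutation test, the smallest p this size allows), and the groups did not overlap. Without the library labelled Control 24 h replicate 2, the batch 3 Control mean was 26.5% (n = 4) and the exact two-sided permutation p was 0.0159, again the smallest this size allows and without overlap. In batch 4 they were 27.4% and 33.9% (n = 6 each, exact permutation p = 0.00433). The groups overlapped in batches 1 and 4, where the highest Control sample was at 26.7% and 29.3% and the lowest Ikaros sample at 23.5% and 28.0%. Adjusted over these 3 tests, the exact permutation p-values were 0.0195, 0.0119 and 0.0119. Batch 2 held 1 sample per series, at 25.02% in Control and 27.4% in Ikaros, and allows no test.

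By time point, the Ikaros mean at Ikzf3 was the higher at 6 of 6 times. Each Ikaros sample was also above the Control sample of the same batch and time, which is a description without a test. At 0 h the Control samples were at 19.4%, 25.02% and 23.9% and the Ikaros samples at 23.5%, 27.4% and 31.6%. These groups overlapped, and the difference of 4.68 points (0.43 ± 0.26 in M-value) did not pass the test at 0 h (adjusted p = 0.658, limma), in which 36 clusters (0.215%) were called. With 1 sample or replicate number left out, the 0 h difference was 0.26 to 0.62 in M-value and never passed (lowest adjusted p = 0.563, limma). At 2 h, Control was at 26.7%, 27.0% and 28.0% and Ikaros at 35.8%, 36.6% and 36.7%, with no overlap, which was the case in 13.4% of the 100404 pairs of a cluster and a time. At 6 h, Control was at 20.8%, 23.8% and 27.7% and Ikaros at 39.7%, 37.0% and 28.0%, where the lowest Ikaros sample was just above the highest Control sample. At 12 h, Control was at 25.3%, 30.1% and 28.0% and Ikaros at 35.9%, 34.1% and 36.5%, again without overlap.

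At 18 h the Control samples were at 24.1%, 25.2% and 27.5% and the Ikaros samples at 31.7%, 50.2% and 36.8%. The groups did not overlap, and Ikaros replicate 2 was the highest of all 36 samples. At 24 h, Control was at 26.3%, 20.9% and 29.3% and Ikaros at 27.1%, 43.4% and 33.8%, with overlap. The library in doubt, Control replicate 2, was the lowest of these 6, and without it the 24 h difference was 6.98 instead of 9.26 points. Over 2 to 24 h the difference was 0.83 ± 0.12 in M-value (adjusted p = 4.53e-05, limma), and Ikzf3 was again the single member called among 701 clusters (4.19%). Without the library in doubt it was 0.80 ± 0.12 (adjusted p = 9.82e-05, limma).

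Whether the Ikzf3 difference grew after induction was not resolved. The difference at 2 to 24 h exceeded that at 0 h by 0.39 ± 0.29 in M-value, with adjusted p = 0.842 in limma, and this contrast called 1 cluster (0.00598%) and no member. Without an adjustment its p was 0.184, and without the library in doubt the contrast was 0.37 ± 0.29 (adjusted p = 0.869, limma). Over all omissions of 1 sample or replicate number it ran from 0.17 to 0.67 and never passed (lowest adjusted p = 0.744, limma). The 0 h groups of 3 samples each came from separately grown cultures.

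**Figure D3:**
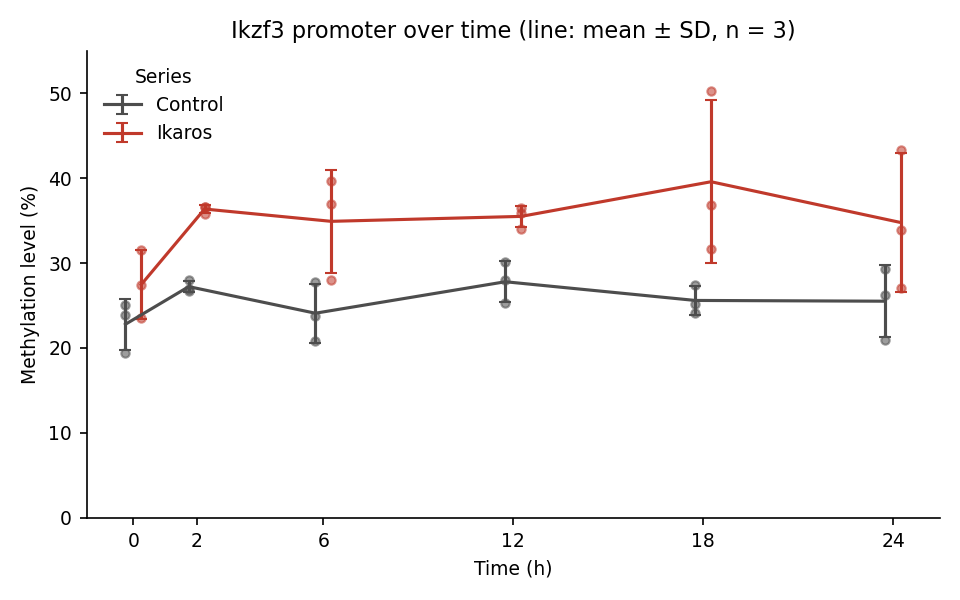
Methylation level of the Ikzf3 promoter (y axis, percent) by time after 4-OHT (x axis, hours) in the Control and Ikaros series, with points for samples and lines for mean ± SD of 3. The Ikaros mean is above the Control mean at every time, by 4.68 points at 0 h and by 13.98 points at 18 h, and the groups overlap at 0 and 24 h.

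The difference at Ikzf3 was uneven along the cluster. Its 81 positions covered 44 CG dinucleotides, and the positions share information because the authors smoothed levels over neighbouring sites. At the 4 dinucleotides upstream of the outer start the mean was 50.8% in Control and 48.1% in Ikaros, with no position called. At the 26 dinucleotides between the starts the means were 25.5% and 33.2%, and 13 dinucleotides were called on every listed strand. At the 14 dinucleotides from the inner start into the gene they were 17.5% and 32.7%, and all 14 were called. In limma on single positions, 47 of the 81 positions passed, all higher in Ikaros, against 24818 of 1116077 positions (2.22%) of the series.

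The lowest methylation in both series was 37 bp upstream of the inner start, at 9.94% ± 2.86 in Control and 21.5% ± 5.79 in Ikaros (SD, n = 18 each). The largest difference, 15.8 points, was 35 bp downstream of it, at 16.9% ± 4.23 against 32.8% ± 8.22. The drop from the upstream dinucleotides to those past the inner start was therefore smaller in Ikaros. It was 33.4 ± 6.47 points in Control, from 19.4 to 42.8 over the samples, and 15.3 ± 7.27 points in Ikaros, from 3.10 to 31.7. Past the inner start, 15 of the 18 Ikaros samples were above every Control sample. These segments were chosen after the values were seen.

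**Figure D4:**
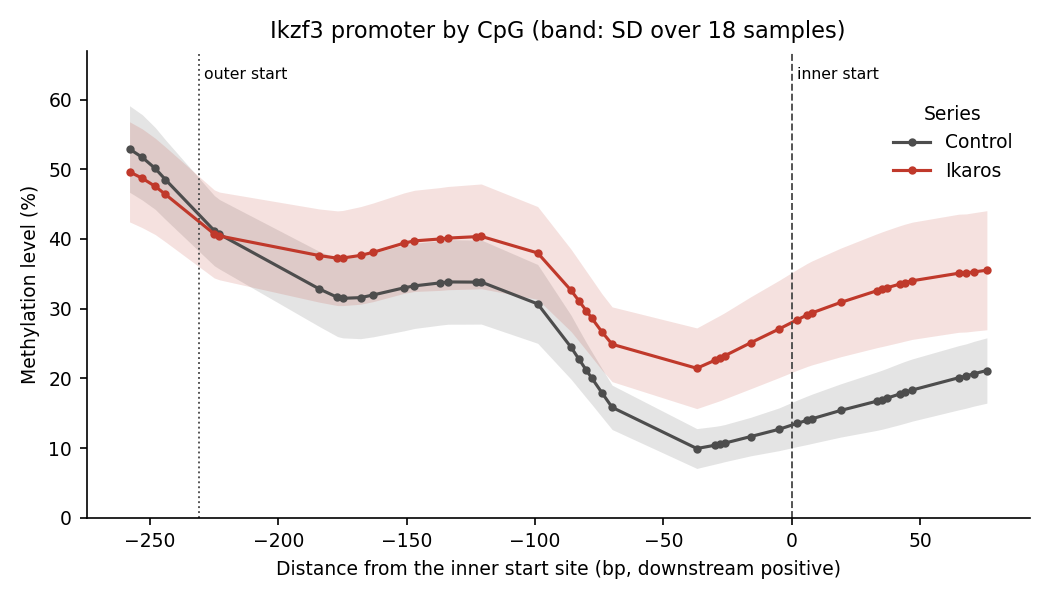
Mean methylation level (y axis, percent) of each of the 44 CG dinucleotides of the Ikzf3 promoter by distance from the inner start (x axis, bp, gene direction), with bands for the SD of 18 samples per series. The bands overlap upstream of the outer start, at means of 50.8% and 48.1%, and separate toward the inner start, where the Control level falls to 9.94% and the Ikaros level to 21.5%.

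At the Ikzf2 promoter the call depended on which positions were counted. Over the 50 of 108 positions with a value in all samples, the Control samples lay between 92.8% and 99.6% with a median of 98.4% and the Ikaros samples between 96.6% and 100% with a median of 99.0%. The ranges shared 96.6% to 99.6%, with 2 Control samples below every Ikaros sample and 3 Ikaros samples above every Control sample. The difference was 1.00 point, with a 95% interval of -0.06 to 2.07, and in M-value it was 0.48 ± 0.24 (adjusted p = 0.362, limma). The other 58 positions had no value in Control 0 h replicate 1, and the 10 dinucleotides nearest the gene also had none in 6 Ikaros samples.

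Those omitted positions held the partly methylated edge of the cluster. From the upstream end toward the gene the level stayed above 90% in both series and then fell. At 117 bp upstream of the GENCODE start, the dinucleotide named because its difference of 26.7 points was the largest of the 71, the mean was 48.0% ± 30.6 in Control (SD, n = 17) and 74.7% ± 30.8 in Ikaros (SD, n = 18). The samples there ran from 0.78% to 100% in Control, with a median of 41.2%, and from 1.30% to 100% in Ikaros, with a median of 91.3%, so both series covered nearly the whole scale. Levels under 50% were found in 10 of 17 Control samples and in 4 of 18 Ikaros samples. At the 10 dinucleotides nearer the gene, with values in 17 Control and 12 Ikaros samples, the difference was 12.8 to 15.1 points (unadjusted p of 0.322 to 0.402 and adjusted p of 0.750 to 0.773 in limma). These 10 lie on both sides of the further start, 106 bp upstream of the GENCODE one. No single position of Ikzf2 passed limma (lowest adjusted p = 0.203).

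With Control 0 h replicate 1 left out, 98 positions of Ikzf2 had values in the other 35 samples. The Control levels were then 85.7% to 98.6% with a median of 93.8%, and the Ikaros levels 90.5% to 99.7% with a median of 96.6%. The means were 93.1% ± 3.20 (SD, n = 17) and 96.3% ± 2.74 (SD, n = 18), and 14 of 18 Ikaros samples were above the Control median. The M-value difference was 0.73 ± 0.21 and passed in limma (adjusted p = 0.0400), in a fit that called 900 of 17387 clusters (5.18%). Without the library labelled Control 24 h replicate 2 as well, it was 0.71 ± 0.22 and did not pass (adjusted p = 0.0554, limma). This choice of positions was made after the empty values were seen.

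**Figure D5:**
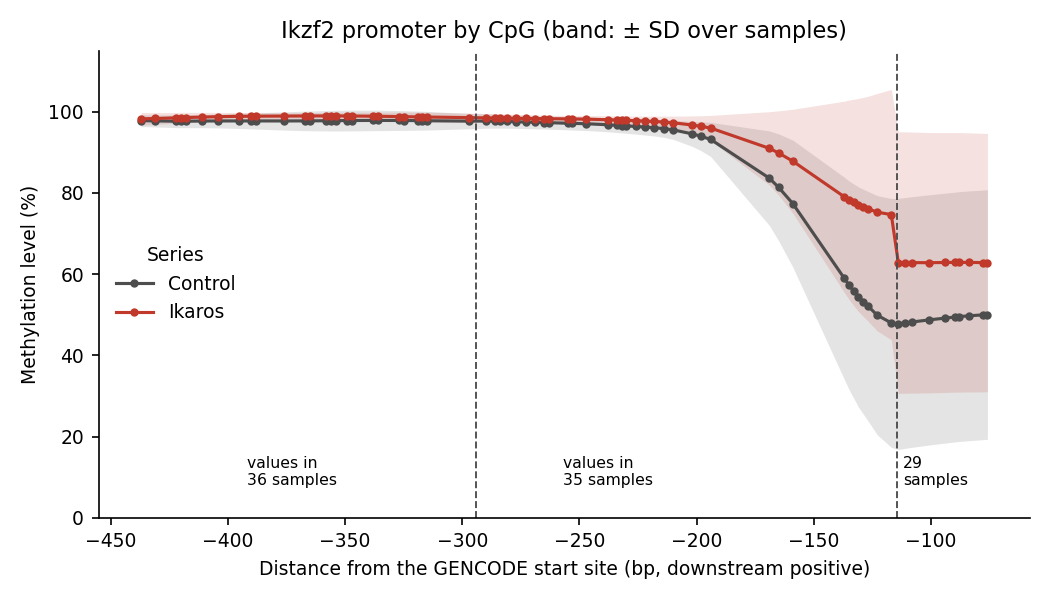
Mean methylation level (y axis, percent) of each listed CG dinucleotide of the Ikzf2 promoter by distance from the GENCODE start (x axis, bp, gene direction), with bands for ± 1 SD over the samples that have a value. Dashed lines part the dinucleotides with values in 36, 35 and 29 samples. The bands are symmetric and can run past 100%, and the step in the Ikaros line at the right-hand dashed line falls where 6 Ikaros samples have no value, and the bands of both series overlap there.

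At Ikzf1, the gene whose cDNA the vector carries, methylation did not pass the threshold between the series at any cluster. At promoter 2, Control samples lay between 96.0% and 99.2% (median 98.1%) and Ikaros samples between 97.4% and 99.5% (median 98.7%). The ranges overlapped, and the difference was 0.60 points (95% interval 0.10 to 1.09). In M-value it was 0.35 ± 0.15 (unadjusted p = 0.0256, adjusted p = 0.234, limma). All 57 positions of promoter 2 were higher in Ikaros in mean, by 0.15 to 1.06 points, and none passed singly. At promoter 1, Control lay between 90.3% and 99.3% (median 98.5%) and Ikaros between 89.7% and 100% (median 98.5%). The Control minimum was at 18 h replicate 3, the Ikaros series had a sample at 91.8% beside its minimum, and the difference was -0.40 points (95% interval -1.92 to 1.12), or -0.26 in M-value (adjusted p = 0.689, limma). With 1 sample or replicate number left out, the M-value difference ran from -0.54 to 0.14, and among the other alternatives it reached -0.03. At promoter 3 it was 0.08 points (95% interval -0.78 to 0.95), or 0.11 in M-value (adjusted p = 0.869, limma).

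The vector's Ikaros cDNA has the sequence of Ikzf1 exons, so reads from it could be mapped to them. No listed position lay in the coding sequence of Ikzf1, which holds 60 CGs and 6 CCGG sites in the genome. In a spliced Ikzf1 coding sequence of 1545 bases, 5 CCGG sites give 2 fragments of 40 to 220 bp, and 1 of these lies within a single exon. Promoters 2 and 3 overlap UTR exons, 35 of 57 and 22 of 22 positions being exonic, and promoter 1 has no exonic position in Ikzf1. Whether the vector's insert included UTR sequence is not given in the sources used here, and a part of vector reads in these levels was not tested.

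The clusters with little methylation did not pass the test. At the Ikzf5 promoter, Control samples lay between 0.19% and 3.11% (median 1.13%) and Ikaros samples between 0% and 2.61% (median 0.85%). The ranges overlapped, with a difference of -0.35 points (95% interval -0.80 to 0.10), or -0.09 in M-value (adjusted p = 0.737, limma). At the Ikzf4 flank, Control lay between 0% and 0.77% (median 0.37%) and Ikaros between 0% and 1.59% (median 0.33%), with a difference of 0.11 points (95% interval -0.14 to 0.36), or 0.07 in M-value (adjusted p = 0.613, limma).

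The time course comparison asks whether methylation at these genes moved in the 24 h after 4-OHT. No member passed in the Ikaros series, where limma called 0 of 16734 clusters (0.0%) and 873 had an unadjusted p under 0.05. None passed in the Control series, where 2 clusters (0.012%) were called. None had a different course between the series, where 0 clusters (0.0%) were called and 857 had an unadjusted p under 0.05. The unadjusted p-values of the 7 members ran from 0.239 to 0.80 in the Ikaros series, from 0.166 to 0.764 in the Control series and from 0.256 to 0.752 for the different course, none under 0.05.

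At single time points, the members other than Ikzf3 did not overlap between the series in 4 of 36 pairs of a cluster and a time, close to the 13.4% over all clusters. Ikzf1 promoter 2 at 0 h was at 97.9% in Control and 98.9% in Ikaros, and Ikzf1 promoter 3 at 18 h at 96.9% and 98.7%. Ikzf2 at 6 h was at 97.6% and 98.8%. Ikzf5 at 24 h was at 1.54% and 0.54%, the one case with the lower level in Ikaros. None of these 4 clusters passed limma at 0 h or over 2 to 24 h.

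The clusters whose M-values followed a member most closely over the 36 samples were sought at more than 1 Mb or on other chromosomes and named by the nearest start. For Ikzf3 they were at Itgb4 (r = 0.82), which codes for an integrin subunit, Pde8a (r = 0.81), a phosphodiesterase gene, and D630033O11Rik (r = 0.79). All 3 were higher in the Ikaros series, at 71.7% against 59.5%, 3.50% against 1.01% and 63.4% against 39.6%. They were chosen by a correlation that included the series difference, so this direction is not a separate finding. With the series means removed the coefficients were 0.52, 0.48 and 0.46, lower than with the series difference included. For Ikzf2 they were at Cib2 (r = 0.64), Rab3d (r = 0.57) and Lrfn5 (r = 0.57). For Ikzf1 promoter 1 the highest r was 0.56, near Gm45188, for Ikzf5 0.61, at Thrap3, and for the Ikzf4 flank 0.84, at Mpnd. The clusters compared were measured in the same libraries, and the coefficients are a description.

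Genes that work with Ikaros proteins gave the wider setting. Of 26 partners and regulators, among them subunits of the NuRD and Sin3 corepressor complexes, 23 had 42 promoter clusters with a value. Of these 1 was called, higher in Ikaros, or 2.38% against 4.84% of all clusters, and the median difference was 0.03 points against 0.04 over all clusters. The called cluster was at Sin3b, a Sin3 corepressor scaffold (chr8:72723351-72723785), at 9.14% ± 0.85 in Control and 11.7% ± 0.94 in Ikaros (adjusted p = 0.00108, limma). The other Sin3b cluster did not pass (adjusted p = 0.230, limma). Of 25 targets and genes of the pre-B network, 13 had 24 promoter clusters, of which 2 were called (8.33%), 1 in each direction, with a median difference of -0.07 points. The called cluster of Hes1, a repressor downstream of Notch, was at 2.94% ± 1.33 in Control and 1.55% ± 1.05 in Ikaros (chr16:30066089-30066644, adjusted p = 0.0364, limma). The other Hes1 clusters did not pass (adjusted p = 0.384 and 0.497, limma). That of Notch3, a Notch receptor, was at 92.2% ± 3.44 and 95.4% ± 2.70 (chr17:32166868-32166936, adjusted p = 0.0448, limma), while the other Notch3 cluster did not pass (adjusted p = 0.218, limma).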

How the data were processed

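RRBS levels of 36 samples were taken from 2 deposited tables. The authors trimmed reads, mapped them to GRCm38 with Bismark 0.10.1, called methylation, and then used BiSeq to smooth levels over neighbouring sites of a cluster. The authors deposited each position's level as a fraction, and also M-values on a log2 scale from levels limited to 0.01 to 0.99. No read numbers are given, so no coverage minimum was applied and counting error is unknown. Levels are printed as percent.

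A cluster's value was the mean over its positions with values in all 36 samples. Tests on cluster M-values used limma 3.58.1 (R 4.3.3), with time as a factor for the series difference, moderated F tests over time and contrasts at 0 h and at 2 to 24 h. P-values were adjusted by Benjamini-Hochberg over all 16734 clusters, at 0.05. Differences in percentage points and their 95% intervals came from the same fit on levels. Single positions with at least 10 values in each series were fitted likewise. These fits were tested on simulated data. Within-batch tests of Ikzf3 were exact permutation tests over the time points of a batch, in Python 3.11.15 with scipy 1.17.1. Members, gene lists and tests were chosen with earlier results of these data known. By the rule for named clusters, sample values are described for clusters past a threshold and, for each gene, for the cluster with the smallest p and the promoter cluster with the most positions. Each sample is printed for Ikzf3, and the lowest, median and highest of 18 for the others.

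Replicate numbers recur in every condition and mark the batches of the labels (1, 4, and 2 or 3). Over all clusters, deviations of same-numbered samples from their condition means had a mean r of -0.000326 over 198 pairs. The mean r of the other pairs, 0.000183, is no independent reference, because the 3 deviations of a condition sum to 0. This mean over all clusters does not describe Ikzf3 alone. Sequences and starts came from GRCm38 with GENCODE M21 and RefSeq. Alternatives were levels, blocks for replicate number or batch, other rules for empty values, the cluster median, clusters with at least 20 CGs, later times, coverage covariates and omission of single samples or replicate numbers. Other data types of the study were not used here.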

Additional observations from a re-analysis of the deposited data

How the results depend on the processing

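Of the results for single members, the Ikzf3 promoter kept its call and its direction in every alternative run for the series difference and for 2 to 24 h. Leaving out a replicate number or a sample gave M-value differences of 0.65 to 0.87 for the series difference and 0.68 to 0.98 for 2 to 24 h, and the replicate block gave 0.76 (adjusted p = 3.76e-06, limma) and changed no call of a member. The batch block gave 0.76 as well. The Ikzf2 promoter passed only with the positions that have values in 35 samples (0.73), where 2 members were called. The cause of the remaining sensitivity was not tested. Leaving samples out gave 368 to 863 called clusters for the series difference, 0 to 5 for time in Ikaros, 0 to 12 for time in Control, 0 to 14 for the different course, 0 to 70 at 0 h, 247 to 757 at 2 to 24 h and 0 to 12 for the latter minus 0 h, while the number of members called stayed the same in each. The lowest series count, 368, was without replicate 3, with 399 without replicate 1. At 0 h, 70 clusters were called without Control 0 h replicate 2 and 56 without Ikaros 24 h replicate 2. With coverage covariates the series difference called 335 clusters. At 0 h, 71 clusters were called on levels, 20 with the cluster median and 23 with values in 35 samples. For time in Control, 0 were called on levels, 6 with the batch block and 1 with available values, with the cluster median, with at least 20 CGs and with values in 35 samples. The cluster median called 3 clusters for time in Ikaros and 1 for the different course. For 2 to 24 h minus 0 h, 0 were called on levels, with the batch block, with available values and with the cluster median, and 2 with values in 35 samples. Over all 7 members, 43 of 1305 signed estimates had the other sign, none of them at Ikzf3, among them the series difference of Ikzf1 promoter 1 without replicate 2 (0.14) and of Ikzf5 with the cluster median (0.04). Weighting the 3 Ikzf1 clusters equally gave 97.96% in Control and 98.1% in Ikaros. The unknown coverage limits the precision of every level.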
